A study of Homo sapiens with 2 samples.

Results

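Aminoacyl-tRNA synthetases, the enzymes that load each amino acid onto its transfer RNA, were compared between Huh7 cells with knockdown of NEIL3 and Huh7 cells that carry shGFP, a control hairpin aimed at green fluorescent protein. Huh7 is an established human hepatocellular carcinoma line, and NEIL3 is a DNA glycosylase of base excision repair. The first group is 1 library labelled as NEIL3 knockdown (NEIL3KD below) and the second is 1 library labelled as the shGFP control; both came from total RNA of cells at the same range of passages, and the sources used here do not say how the knockdown was made. The members are all protein-coding genes whose names follow the synthetase pattern in the deposited table. There were 37 of them among 58220 genes, 20 cytosolic and 17 mitochondrial; names of mitochondrial members end in 2. Values are FPKM, fragment numbers scaled to transcript length and to the size of the library, so levels of different genes can be set side by side per length. With 1 library in each group there is no replicate error, no p-value was computed, and every difference below describes these libraries only.

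Human cells run separate protein synthesis in the cytosol and in mitochondria, and nuclear genes supply the synthetases for both. Most amino acids have a cytosolic enzyme and a mitochondrial enzyme from different genes, while GARS (glycine) and KARS (lysine) each serve both compartments from 1 gene. The cytosolic enzyme EPRS joins the glutamate and proline activities in 1 protein, and cytosolic phenylalanine charging needs the subunits FARSA and FARSB together. In mitochondria no glutamine enzyme is used; EARS2 charges the glutamine tRNA with glutamate and an amidotransferase of QRSL1, GATB and GATC corrects it. Several cytosolic synthetases sit in a multisynthetase complex held by the scaffolds AIMP1, AIMP2 and EEF1E1. Many cytosolic synthetase genes are targets of ATF4, the transcription factor of the amino acid and stress response, which binds composite elements that hold TGATGNAA.

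These letters were searched on both strands in the RefSeq promoter windows, from 250 bases before to 50 bases after each annotated start (GRCh38.p14), to show what the synthetase genes share in sequence. Of the 37 members, 30 matched a window, namely 16 cytosolic and 14 mitochondrial genes. AARS2, DARS, LARS, VARS, VARS2 and YARS were among those with no entry. The letters stood in 7 of the 16 cytosolic genes (43.8%) and in 1 of the 14 mitochondrial genes (7.14%), against 571 of 15843 protein-coding genes in the same table (3.60%). The 30 bases around each match follow, 5′ to 3′ on the strand of the gene, with the match in capitals; TTNCATCA is the same element read on the other strand. ASNS, asparagine synthetase and an ATF4 target in many cell types, is shown for comparison.
AARS: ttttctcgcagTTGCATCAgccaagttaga
CARS: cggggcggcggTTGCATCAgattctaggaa
GARS: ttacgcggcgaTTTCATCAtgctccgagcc
IARS: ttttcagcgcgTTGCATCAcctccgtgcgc
MARS: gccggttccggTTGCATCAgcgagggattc
NARS: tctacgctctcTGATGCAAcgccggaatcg
TARS: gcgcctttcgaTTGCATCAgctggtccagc
YARS2: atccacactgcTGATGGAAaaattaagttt
ASNS: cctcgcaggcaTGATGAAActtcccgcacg

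Of the cytosolic matches, 6 had the letters TTGCATCA, or TGATGCAA on the other strand, an exact form that was counted after the matches were seen. That form stood in 6 of 16 cytosolic windows (37.5%), in 0 of 14 mitochondrial windows, and in 143 of 15843 windows of all protein-coding genes (0.903%). The match lay close to the annotated start in most of the cytosolic genes, beginning at base -33 in GARS, -13 in IARS, -4 in MARS, -2 in CARS, 3 in TARS and 15 in NARS, counted from 1 at the start and from -1 before it. It lay further upstream in AARS, at base -187, and in the mitochondrial YARS2, at base -197. For genomic place, the IARS stretch is chr9:92293692-92293721 on the minus strand and the MARS stretch is chr12:57488053-57488082 on the plus strand. The letters are a description of these windows and not evidence of binding.

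The transcript levels were checked first for what could be measured. NEIL3 itself stood at 2.84 FPKM in the NEIL3KD library and 5.34 FPKM in the shGFP library, a ratio of 0.532, so the labels and the targeted transcript point the same way. The hepatocyte markers ALB (albumin), APOA1, APOB, SERPINA1, HNF4A and TTR all passed 1 FPKM. Of these 6, 4 were 25% or more higher in NEIL3KD with 1 FPKM added to each value, against 13.1% of the protein-coding genes, with a median log2 ratio of NEIL3KD over shGFP of 0.42, and their summed level was 2057 FPKM in NEIL3KD and 1881 FPKM in shGFP; SERPINA1 stood at 367 FPKM in NEIL3KD and 226 FPKM in shGFP, TTR at 7.81 FPKM in NEIL3KD and 1.65 FPKM in shGFP, and ALB at a ratio of 0.945. PTPRC, CD3E, VWF, CDH5 and KDR, which mark leukocytes and endothelium, stayed under 1 FPKM in both libraries. Other markers of these and further cell types were present, namely LYZ, CD14 and PECAM1, all 5 fibroblast and stellate cell markers, and KRT7, KRT19 and SOX9 of cholangiocytes, while CFTR was at the floor of 1e-05; LYZ stood at 2353 FPKM in NEIL3KD and 1200 FPKM in shGFP, CD14 at 5.33 FPKM in NEIL3KD and 2.57 FPKM in shGFP, and the stellate cell marker PDGFRB at 9.19 FPKM in NEIL3KD and 3.32 FPKM in shGFP. The 5 fibroblast and stellate cell markers summed to 40.2 FPKM in NEIL3KD and 33.4 FPKM in shGFP, and the cholangiocyte markers to 126.7 FPKM in NEIL3KD and 120.8 FPKM in shGFP. Mitochondrially encoded transcripts took 26.3% of the summed FPKM in NEIL3KD and 23.1% in shGFP. Protein-coding genes that reached 1 FPKM in at least 1 library summed to 543194 FPKM in NEIL3KD and 503561 FPKM in shGFP, a ratio of 1.08. Mitochondrially encoded protein-coding genes are part of these sums. Of the 37 synthetases, 34 reached 1 FPKM in at least 1 library, 19 cytosolic and 15 mitochondrial; VARS, VARS2 and SARS2 did not and are described at the end.

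Cytosolic synthetase transcripts were as a set more abundant than mitochondrial ones in both libraries. The median cytosolic level was 84.0 FPKM in NEIL3KD and 73.8 FPKM in shGFP, and the median mitochondrial level was 21.0 FPKM in NEIL3KD and 16.9 FPKM in shGFP. QARS, the glutamine enzyme, was the highest of all, at 214 FPKM in NEIL3KD and 256 FPKM in shGFP. The isoleucine enzyme IARS came next in NEIL3KD, at 129 FPKM, and the alanine enzyme AARS came next in shGFP, at 131 FPKM. CARS, the cysteine enzyme, was the lowest cytosolic member, at 2.29 FPKM in NEIL3KD and 2.61 FPKM in shGFP. Among mitochondrial enzymes IARS2 stood highest, at 60.4 FPKM in NEIL3KD and 54.3 FPKM in shGFP, and the proline enzyme PARS2 lowest, at 4.36 FPKM in NEIL3KD and 4.24 FPKM in shGFP.

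**Figure D1:**
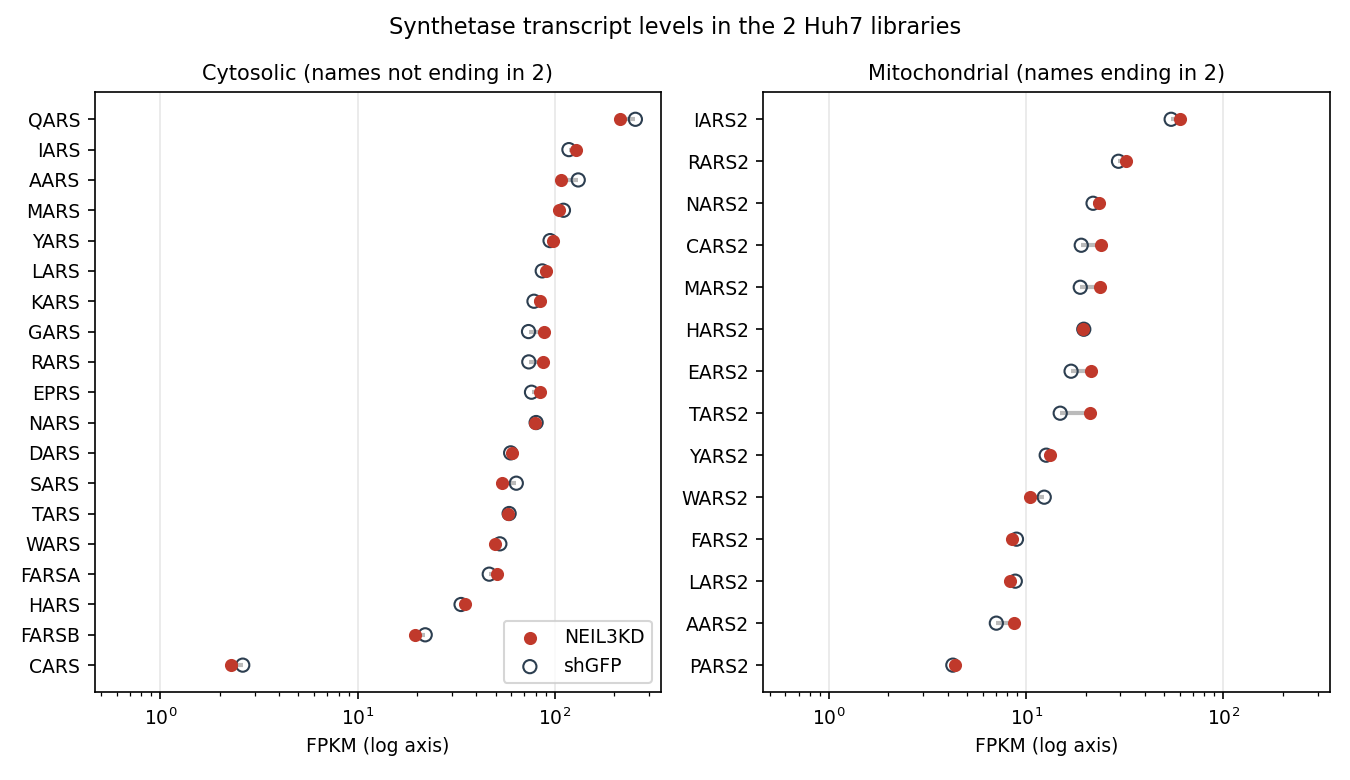
FPKM of 33 of the 34 synthetases that reached 1 FPKM in at least 1 library (x axis, log scale), cytosolic at left and mitochondrial at right, ordered by mean level; filled points are the NEIL3KD library and open circles the shGFP library. The points of a gene lie close together beside the spread between genes, which runs from 2.29 to 214 FPKM in NEIL3KD and from 2.61 to 256 FPKM in shGFP.

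For 12 amino acids with 1 gene per compartment and both genes measured, the cytosolic gene was the more abundant for 11 in each library. The median of the 12 within-pair ratios, cytosolic over mitochondrial level, was 3.08 in NEIL3KD and 3.82 in shGFP. The widest gap was that of alanine, where AARS was 12.3 times AARS2 in NEIL3KD and 18.6 times in shGFP. Cysteine was the exception, with CARS at 0.0958 times CARS2 in NEIL3KD and 0.138 times in shGFP. CARS itself was low, and 6 of 9 other protein-coding genes within 400 kb of its start were under 1 FPKM in both libraries (66.7%). Over all protein-coding genes that share was 40.9%. It was also 66.7% around GARS, which stood at 88.3 FPKM in NEIL3KD and 73.5 FPKM in shGFP, so the share does not set CARS apart. Whether the level of CARS was under-read was not tested. The subunits of the cytosolic phenylalanine enzyme differed in level: FARSA stood at 50.6 FPKM in NEIL3KD and 46.5 FPKM in shGFP, and FARSB at 19.5 FPKM in NEIL3KD and 22.0 FPKM in shGFP.

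Between the libraries the cytosolic synthetases were close to level. Differences are given as log2((NEIL3KD + 1)/(shGFP + 1)) of the FPKM values, which understates the change of low genes, and folds beside FPKM values are plain ratios. The median log2 ratio of the 19 cytosolic genes was 0.02, against 0.03 over 11703 protein-coding genes. There were 10 above 0 and 9 below, where 54.6% of the protein-coding genes were above 0. Of the 19, 0 were 25% or more higher and 0 were 20% or more lower in NEIL3KD, the same ratio in either direction and the lower limit used for counts here. Of the protein-coding genes 13.1% passed this limit upward and 10.9% downward, 24% in all. Among protein-coding genes of mean FPKM 10 to 100, 18.7% passed it in either direction, and among all 19 cytosolic synthetases 0%. Of these synthetases CARS lies under that band, and AARS, IARS, MARS and QARS lie over it. Summed over the 19 genes, the level was 1495 FPKM in NEIL3KD and 1518 FPKM in shGFP, a ratio of 0.985. The sums of the 11703 protein-coding genes gave a ratio of 1.08. Those sums include the mitochondrially encoded genes, which took 26.3% of the summed FPKM in NEIL3KD and 23.1% in shGFP. The median fold of the 11703 genes, with 1 FPKM added, was 1.02.

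The lowest ratios among cytosolic members belonged to AARS, QARS and SARS. AARS (chromosome 16, 70252295 to 70289543, minus strand, GRCh38) stood at 106.9 FPKM in NEIL3KD and 131 FPKM in shGFP, a ratio of 0.814. QARS (chromosome 3, 49095932 to 49105135, minus strand) was lower by a like amount, at a ratio of 0.835 from the levels given above. SARS, the serine enzyme, stood at 54.0 FPKM in NEIL3KD and 63.7 FPKM in shGFP, a ratio of 0.847. These are the farthest below 0 of the 19 and still lie within the limit; with log2 ratios centred on the median of all protein-coding genes, AARS alone passed it, at -0.32.

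The highest cytosolic ratios belonged to GARS and RARS. GARS, which also makes the mitochondrial glycine enzyme (chromosome 7, 30594681 to 30634033, plus strand), stood at 88.3 FPKM in NEIL3KD and 73.5 FPKM in shGFP, a ratio of 1.20. RARS, the arginine enzyme, stood at 87.1 FPKM in NEIL3KD and 73.8 FPKM in shGFP, a ratio of 1.18. Both were higher in NEIL3KD and neither reached 25%. KARS, the other gene that serves both compartments, stood at 84.0 FPKM in NEIL3KD and 78.4 FPKM in shGFP.

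The other cytosolic genes lay closer to their shGFP level. IARS stood at 128.7 FPKM in NEIL3KD and 117.8 FPKM in shGFP, and EPRS at 84.3 FPKM in NEIL3KD and 76.1 FPKM in shGFP. LARS, the leucine enzyme, stood at 90.5 FPKM in NEIL3KD and 86.3 FPKM in shGFP. MARS, the methionine enzyme, stood at 105 FPKM in NEIL3KD and 111 FPKM in shGFP. It shares 13.3% of its exonic bases with DDIT3, ARHGAP9 and a microRNA gene in GENCODE release 29, so its value carries more doubt than the FPKM shows. The closest of all were the asparagine enzyme NARS, at 79.3 FPKM in NEIL3KD and 80.4 FPKM in shGFP, the threonine enzyme TARS, at 57.8 FPKM in NEIL3KD and 58.6 FPKM in shGFP, and the aspartate enzyme DARS, at 60.6 FPKM in NEIL3KD and 59.7 FPKM in shGFP. HARS, WARS and YARS, for histidine, tryptophan and tyrosine, had ratios of 1.05, 0.948 and 1.03.

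Members of the multisynthetase complex and the other cytosolic enzymes overlapped. The 8 complex enzymes had a median log2 ratio of 0.08, from -0.26 (QARS) to 0.24 (RARS), with 6 above 0. The 11 measured enzymes outside the complex had a median of -0.02, from -0.30 (AARS) to 0.26 (GARS), with 4 above 0. Of the protein-coding genes 54.6% were above 0. The scaffold genes lay within the limit too: AIMP2 stood at 37.1 FPKM in NEIL3KD and 30.8 FPKM in shGFP, AIMP1 at 34.2 FPKM in NEIL3KD and 31.2 FPKM in shGFP, and EEF1E1 at 84.8 FPKM in NEIL3KD and 82.9 FPKM in shGFP. By structural class, the cytosolic class I enzymes had a median of -0.01 over 8 genes and the class II enzymes 0.00 over 10, EPRS being left out because it holds an enzyme of each class.

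**Figure D2:**
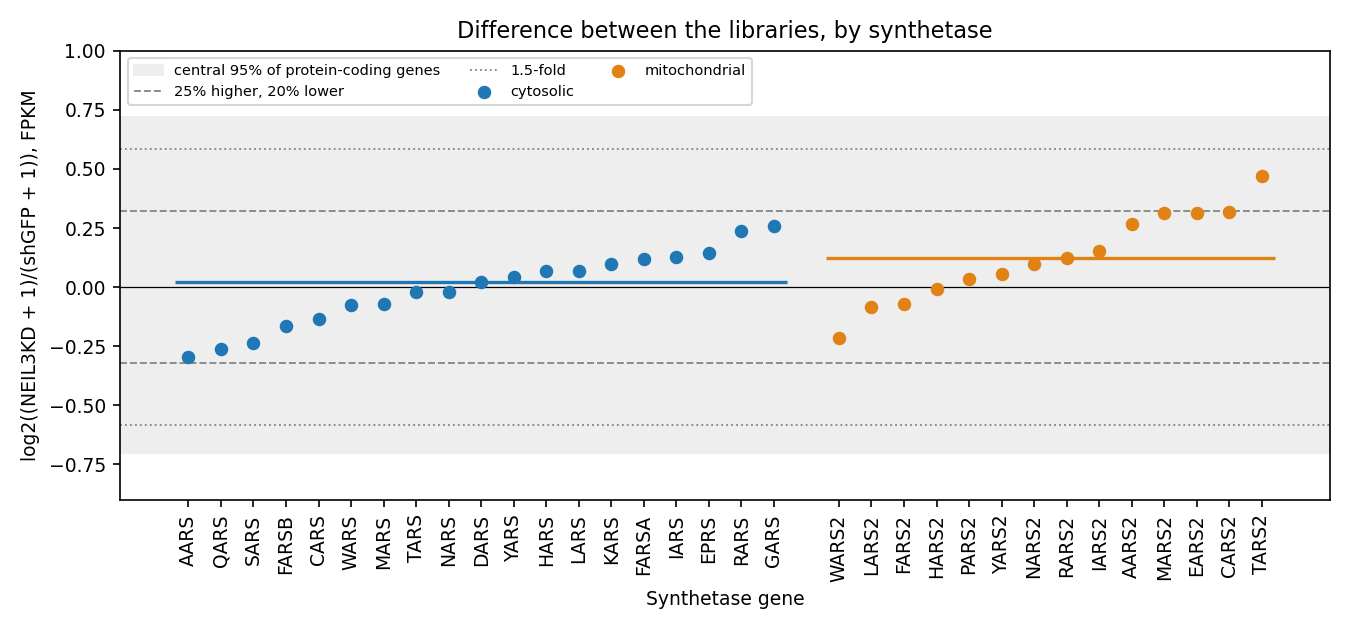
Log2 ratio of NEIL3KD over shGFP with 1 FPKM added (y axis) for 33 of the 34 synthetases (x axis), cytosolic in blue and mitochondrial in orange, each sorted; horizontal bars are the medians over all 34, 0.02 and 0.12, dashed lines mark 25% higher and 20% lower, dotted lines 1.5-fold, and the grey band holds the central 95% of protein-coding genes. All drawn but TARS2 lie inside the dashed lines.

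Mitochondrial synthetases were slightly higher in NEIL3KD as a set. Their median log2 ratio was 0.12 over 15 genes, with 11 above 0 (73.3%), where 54.6% of the protein-coding genes were above 0. Their summed level was 310 FPKM in NEIL3KD and 278 FPKM in shGFP, a ratio of 1.12. Summed over the 11703 protein-coding genes, mitochondrially encoded ones included, that ratio was 1.08, and their median fold with 1 FPKM added was 1.02. The cytosolic median minus the mitochondrial median was -0.10, which is small beside the range within either set. On the log2(FPKM + 1) scale only TARS2 of the 15 was 25% or more higher and 0 were 20% or more lower. By the plain ratio 4 of the 15 passed upward (26.7%) and 0 downward, where 15.7% of the protein-coding genes passed upward and 13.3% downward. Of all 34 measured synthetases 0 were 1.5-fold apart in either direction, against 7.94% of the protein-coding genes. That share covers all levels from 1 FPKM up, and none was taken at 1.5-fold over genes of like level.

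TARS2, the mitochondrial threonine enzyme (chromosome 1, 150487364 to 150507609, plus strand), had the highest ratio of the family. It stood at 21.0 FPKM in NEIL3KD and 14.9 FPKM in shGFP, 1.41-fold higher, with a log2 ratio of 0.47. That value lies inside the central 95% of protein-coding genes, which ran from -0.70 to 0.72. In the authors' deposited table, the comparison of the libraries gave TARS2 a p-value of 0.345, the lowest of the 37 members, and the lowest q-value of any member was 0.9996.

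CARS2, EARS2, MARS2 and AARS2 followed TARS2, at lower ratios that were close to one another. CARS2, for cysteine, stood at 23.9 FPKM in NEIL3KD and 19.0 FPKM in shGFP, a ratio of 1.26. EARS2, which charges glutamate and starts the glutamine route, stood at 21.2 FPKM in NEIL3KD and 16.9 FPKM in shGFP, a ratio of 1.26; 6.46% of its exonic bases overlap UBFD1 on the opposite strand. MARS2, for methionine (chromosome 2, 197705369 to 197708387, plus strand), stood at 23.5 FPKM in NEIL3KD and 18.8 FPKM in shGFP, 25.4% higher. AARS2, for alanine, stood at 8.68 FPKM in NEIL3KD and 7.05 FPKM in shGFP, a ratio of 1.23. All were higher in NEIL3KD, and none of these 4 was 25% higher once 1 FPKM was added.

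The lowest ratio among the measured mitochondrial genes was that of WARS2, for tryptophan, at 0.851. WARS2 stood at 10.5 FPKM in NEIL3KD and 12.3 FPKM in shGFP. LARS2, at 8.25 FPKM in NEIL3KD and 8.79 FPKM in shGFP, FARS2, at 8.45 FPKM in NEIL3KD and 8.91 FPKM in shGFP, and HARS2, at 19.5 FPKM in NEIL3KD and 19.6 FPKM in shGFP, were also lower in NEIL3KD by small amounts. IARS2, RARS2 and NARS2 had ratios of 1.11, 1.09 and 1.07. YARS2 stood at 13.2 FPKM in NEIL3KD and 12.6 FPKM in shGFP, and PARS2 was nearly level.

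Set against each other amino acid by amino acid, the mitochondrial gene had the higher ratio in 8 of 12 pairs and the cytosolic gene in 4. The median difference, cytosolic minus mitochondrial, was -0.07 on the log2 scale. The pairs farthest apart were alanine, at -0.56, threonine, at -0.49, cysteine, at -0.45, and methionine, at -0.38. In these 4 pairs the cytosolic gene lay below 0, from -0.30 in AARS to -0.02 in TARS, and the mitochondrial gene above 0, from 0.27 in AARS2 to 0.47 in TARS2. The low gene CARS depended on the FPKM added, with a log2 ratio of -0.06 with 5 FPKM added and -0.19 with none. The cytosolic genes of these 4 pairs, which were picked by these same values, each hold the TGATGNAA letters shown above, as was seen afterwards. NARS and IARS hold them too, and their pairs differed by -0.11 for asparagine and -0.03 for isoleucine. In the remaining pairs HARS, RARS and WARS lack the letters, and DARS, LARS and YARS had no window. The letters stood in 43.8% of the 16 cytosolic windows. Those windows include genes outside these pairs, such as EPRS, GARS and QARS, so that share is no base for the 4 pairs. The link of the letters to the pair differences was not tested. At the other end, leucine, at 0.15, and tryptophan, at 0.14, had the higher ratio in the cytosolic gene. The pairs share the same libraries, so they are no replicates of one another.

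**Figure D3:**
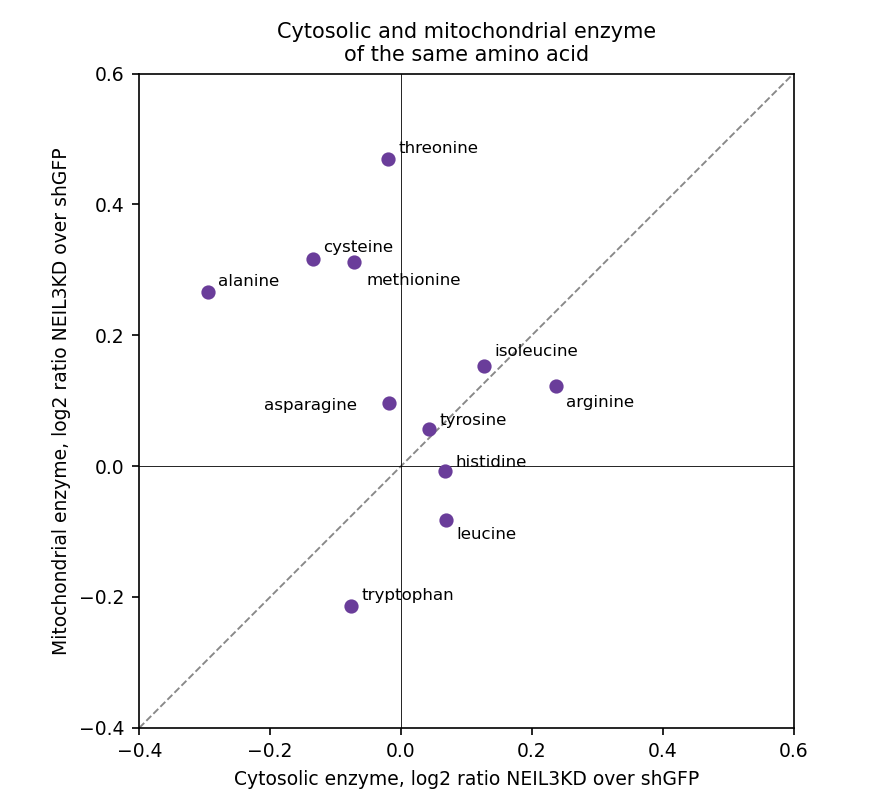
Log2 ratio of NEIL3KD over shGFP of the cytosolic gene (x axis) and of the mitochondrial gene (y axis) for 11 of the 12 amino acids with 1 measured gene in each compartment; the dashed line marks equal ratios. Threonine, cysteine, methionine and alanine lie farthest above it.

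Gene position gave a few natural neighbours to compare. HARS and HARS2 stand head to head on chromosome 5, with RefSeq starts 85 bases apart, and were close to level in both libraries, at ratios of 1.05 and 0.995. In GENCODE release 29, HARS2 shares 15.8% of its exonic bases with other genes, with HARS on the opposite strand and with ZMAT2 on its own strand. The deposited coordinates of HARS and HARS2 differ from those of that release, so the share is approximate for these values. The strand setting of the counting bears on the separation from HARS, and the sources used here do not give it; strand cannot separate HARS2 from ZMAT2. EPRS and IARS2 lie 47443 bases apart on chromosome 1 and had ratios of 1.11 and 1.11. These pairs were chosen for their position.

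The cytosolic genes with the TGATGNAA letters did not share a direction. Their median log2 ratio was -0.02 over 7 genes, from -0.30 (AARS) to 0.26 (GARS), with 5 below 0 and 2 above. The 9 measured cytosolic genes whose windows lack the letters had a median of 0.07, from -0.26 (QARS) to 0.24 (RARS), with 4 below 0 and 5 above. The ranges of these sets overlap almost fully. Over all protein-coding genes 54.6% were above 0.

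ATF4 and the other genes listed as its targets varied more than the synthetases. ATF4 itself stood at 272 FPKM in NEIL3KD and 242 FPKM in shGFP. Of 22 measured genes of the list, 2 were 25% or more higher and 7 were 20% or more lower in NEIL3KD, 40.9% in all against 24% of the protein-coding genes, and the list median was -0.05. The folate enzyme MTHFD2 stood at 42.7 FPKM in NEIL3KD and 70.0 FPKM in shGFP, and the amino acid transporter SLC7A5 at 21.5 FPKM in NEIL3KD and 32.8 FPKM in shGFP. The cystine transporter SLC7A11 went the other way, at 54.4 FPKM in NEIL3KD and 33.3 FPKM in shGFP. ASNS, whose promoter match is shown above, stood at 56.8 FPKM in NEIL3KD and 76.6 FPKM in shGFP. Of the 4 kinases that act upstream of ATF4, EIF2AK1, the most abundant, stood at 58.7 FPKM in NEIL3KD and 62.9 FPKM in shGFP, and the other three were slightly higher in NEIL3KD. EIF2AK2 stood at 13.2 FPKM in NEIL3KD and 11.9 FPKM in shGFP. EIF2AK3 stood at 13.3 FPKM in NEIL3KD and 10.8 FPKM in shGFP, and EIF2AK4, the sensor of uncharged tRNA, at 11.6 FPKM in NEIL3KD and 10.7 FPKM in shGFP. The list of 6 ATF4 regulators also holds PPP1R15A, at 11.5 FPKM in NEIL3KD and 8.47 FPKM in shGFP, and PPP1R15B, at 26.3 FPKM in NEIL3KD and 27.7 FPKM in shGFP. PPP1R15A was the only 1 of the 6 past the limit (16.7%), upward, where 13.1% of the protein-coding genes passed upward.

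The partners of the mitochondrial synthetases lay on the same side of 0. All 4 of GATB, GATC, QRSL1 and the initiator tRNA formyltransferase MTFMT were above 0, with a median log2 ratio of 0.14; GATB stood at 17.0 FPKM in NEIL3KD and 14.5 FPKM in shGFP, and MTFMT at 18.9 FPKM in NEIL3KD and 15.9 FPKM in shGFP. The 10 mitochondrial translation factors had a median of 0.10, with 7 above 0 and 0 past the limit of 25% higher or 20% lower; MTIF2, an initiation factor, stood at 44.0 FPKM in NEIL3KD and 36.2 FPKM in shGFP. Mitochondrial ribosomal protein genes had a median of 0.18 over 76 genes, with 64 above 0 (84.2%), 15 past the limit upward (19.7%) and 1 downward (1.32%); over all protein-coding genes 54.6% were above 0, 13.1% passed upward and 10.9% downward. The larger share of mitochondrially encoded transcripts and the higher hepatocyte, LYZ, CD14 and PDGFRB levels in NEIL3KD, given above, move with these sets and with the mitochondrial synthetases, and their part in them was not tested.

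The 4 synthetase relatives were all above 0, where 54.6% of the protein-coding genes were above 0. SEPSECS, which makes selenocysteine on its tRNA, stood at 13.6 FPKM in NEIL3KD and 9.74 FPKM in shGFP, a ratio of 1.40, and PSTK, the kinase of the step before, at 3.43 FPKM in NEIL3KD and 2.59 FPKM in shGFP. TARSL2, a relative of TARS, stood at 4.53 FPKM in NEIL3KD and 3.60 FPKM in shGFP, and AARSD1, a relative of the AARS editing domain, at 33.5 FPKM in NEIL3KD and 28.2 FPKM in shGFP. Cytosolic elongation factors, the next users of charged tRNA, had a median of -0.19 over 6 genes, with 5 below 0. EEF1A1, which carries charged tRNA to the ribosome, and EEF2, the translocase, had ratios of 0.950 and 0.974. EEF1G, a subunit of the exchange factor for EEF1A1, was the only one above 0, at 909 FPKM in NEIL3KD and 754 FPKM in shGFP, a ratio of 1.21. The other exchange factor subunits, EEF1B2 and EEF1D, had ratios of 0.784 and 0.802, at levels far under that of EEF1G. EEF1B2 stood at 17.2 FPKM in NEIL3KD and 22.0 FPKM in shGFP, and EEF1D at 11.8 FPKM in NEIL3KD and 14.7 FPKM in shGFP. Whether these levels were under-read was not tested. EEF1A2, the form of EEF1A1 in nerve and muscle, stood at 1.27 FPKM in NEIL3KD and 4.28 FPKM in shGFP.

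**Figure D4:**
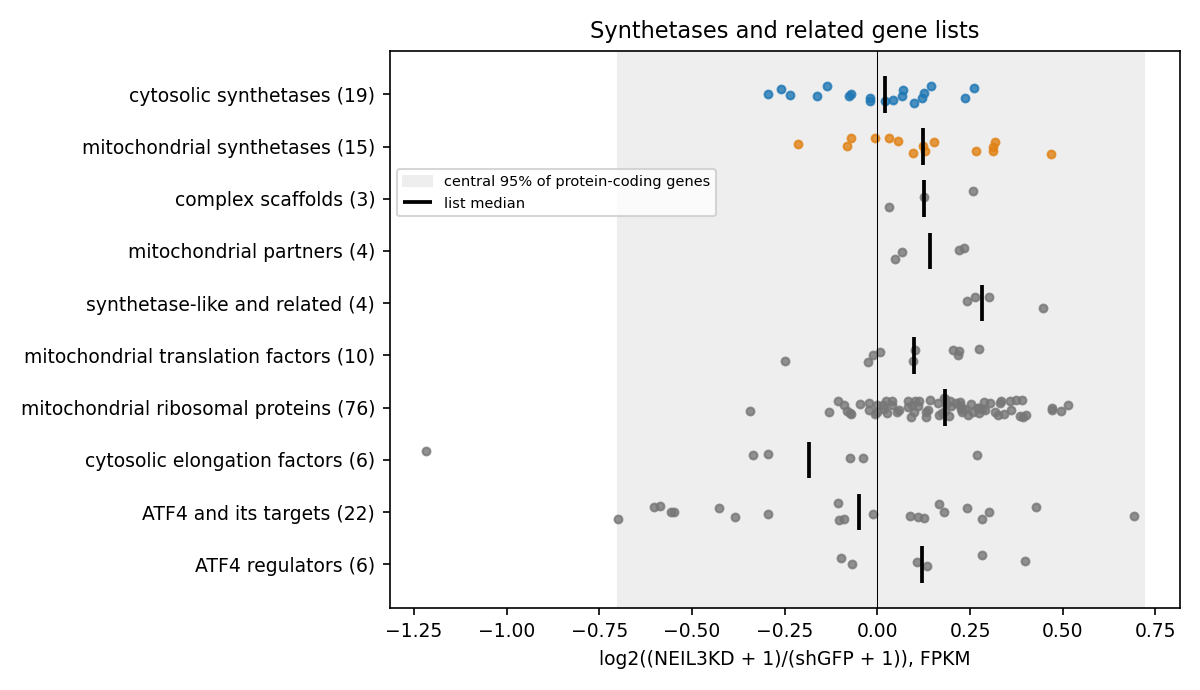
Log2 ratios of NEIL3KD over shGFP with 1 FPKM added (x axis) for the synthetases and related lists (y axis, number of measured genes in brackets); points are genes, black bars list medians, and the grey band the central 95% of protein-coding genes. Synthetase genes sit nearer 0 than the ATF4 list, and the mitochondrial sets have medians from 0.10 to 0.18.

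The remaining synthetases, VARS, VARS2 and SARS2, could not be compared. VARS, the only cytosolic valine enzyme (ENSG00000204394, chromosome 6, 31777518 to 31795953, minus strand), is listed at 1e-05 FPKM in both libraries, the value the table gives undetected genes. VARS2, its mitochondrial counterpart (chromosome 6, 30908242 to 30926459, plus strand), is listed at 0.00489 FPKM in NEIL3KD and 0.00385 FPKM in shGFP. SARS2, the mitochondrial serine enzyme (chromosome 19, 38915266 to 38930896, minus strand), is listed at 0.316 FPKM in NEIL3KD and 0.756 FPKM in shGFP. No fold is read from these values.

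The genes around VARS, VARS2 and SARS2 were listed near 0 as well. Within 400 kb of the VARS start, 59 of 63 other protein-coding genes were under 1 FPKM in both libraries (93.7%), around VARS2 27 of 29 (93.1%), and around SARS2 23 of 26 (88.5%). Around the 27 measured synthetases with at least 5 such neighbours, the median share was 33.3% and the highest 66.7%, around CARS, GARS and LARS2. Over all protein-coding genes the share was 40.9%. Several of these neighbours are genes that nearly every cell uses, named here after their values were seen. TUBB, a beta-tubulin, and CLIC1 are listed at 1e-05 FPKM in both libraries. HNRNPL, a splicing factor, is listed at 0.0835 FPKM in NEIL3KD and 0.0716 FPKM in shGFP, and ACTN4, an actinin, at 0.0455 FPKM in NEIL3KD and 0.00672 FPKM in shGFP. GTF2H4, which shares exonic bases with VARS2, and MRPS12, which shares exonic bases with SARS2, are at 1e-05 FPKM in both libraries. The low values of the 3 synthetases are thus shared by their surroundings and give no level for the enzymes.

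**Figure D5:**
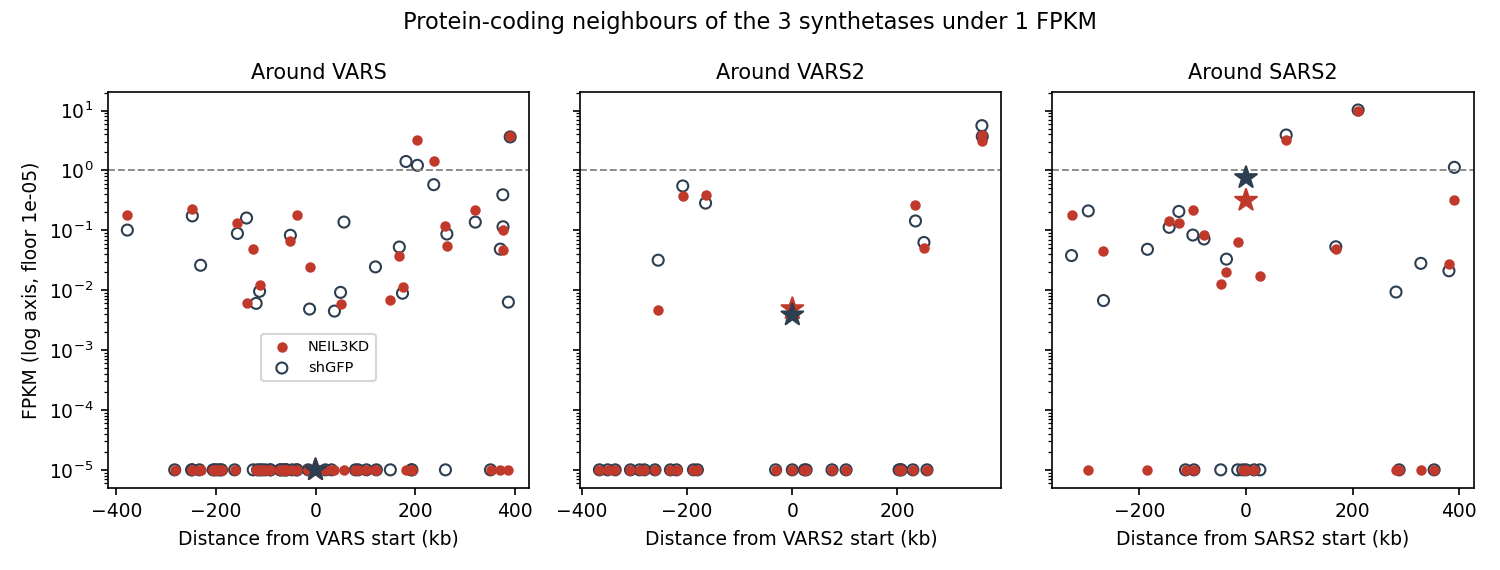
FPKM (y axis, log scale) of protein-coding genes by distance in kb from the start of VARS, VARS2 and SARS2 (x axes); filled red points and stars are the NEIL3KD library, open circles and dark stars the shGFP library, and stars are the named synthetase. Most neighbours lie under the dashed line at 1 FPKM, many at 1e-05.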

How the data were processed

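RNA of 1 NEIL3 knockdown and 1 shGFP Huh7 culture was sequenced with a strand-specific kit, per the labels' protocols. Reads were trimmed (Trimmomatic 0.36), aligned (HISAT2 2.1.0, build GRCh38.p10) and quantified (Cufflinks 2.2.1, Cuffdiff) by the authors, per the submitters' processing notes; the annotation release, any filters and the strand option are not stated in the sources used here. The deposited FPKM values, per the file headers, come with ratio and log2 columns of NEIL3KD over shGFP, which equal the FPKM quotient in all 58220 genes within 1%, and with the authors' p-value and q-value, quoted for TARS2 and the member minimum only. Because FPKM is no count, count models were not used. Fragment totals are not stated. Of 6118 genes under 0.3 FPKM in both libraries, 664 had a ratio within 2% of 1.29. Single fragments would give this if FPKM were scaled to fragment totals and NEIL3KD held 77.8% of the shGFP fragments. No counting interval is given.

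Rows were reduced to 56558 symbols, keeping the most abundant row. Analysed genes had at least 1 FPKM in at least 1 library; log2 ratios used a pseudocount of 1 FPKM. Members and lists were chosen with earlier results of these data known, and 1 member, counted in the sets, is not reported by name here. Genes are placed as the deposited table gives them; exon overlap used GENCODE release 29, where 33 of 37 members have the same coordinates. Promoter windows are RefSeq's (GRCh38.p14), matched by NCBI gene ID. The calculation of ratios and of counts at 1.5-fold was run on simulated data with large planted changes, little noise and no pseudocount. That run checks the calculation only and not the counts given here. Python 3.11.15, pandas 2.3.3 and NumPy 2.4.6 were used.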

Additional observations from a re-analysis of the deposited data

How the results depend on the processing

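No paired analysis was possible because each group has 1 library and no result comes from a test. With 9 alternatives run, the mitochondrial median stayed above the cytosolic one in each. The difference lay between -0.14 (GARS and KARS left out) and -0.07 (members sharing 5% or more of their exonic bases left out). The latter alternative was added after the data were seen. Centring subtracts the same value from both sets and cannot change the difference. Rescaling multiplies a single library by a single factor and can hardly change it, so neither bears on the order of the medians. The cytosolic median, 0.02, is too near 0 to have a direction: the cytosolic median log2 ratio was -0.0053 with FPKM rescaled without mitochondrially encoded genes, -0.0065 with ratios centred on the median of protein-coding genes, and -0.019 with GARS and KARS left out. Of mitochondrial members, 4 were 25% or more higher with a pseudocount of 0.1 FPKM and 4 with none, against 1 with a pseudocount of 1; these were TARS2, CARS2, EARS2 and MARS2, and the last 3 lie just at the limit. With no filter on low values 1 mitochondrial member, SARS2, counted as lower. With centred ratios 1 cytosolic member, AARS, counted as lower. The absolute depth is unknown, so counting error cannot be set beside any of these differences.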
